A study of Mus with 14 samples.

Results

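The Gimap family of mouse comprises 8 genes in the deposited matrices (Gimap1, Gimap3, Gimap4, Gimap5, Gimap6, Gimap7, Gimap8 and Gimap9), out of 32285 genes listed there. The members were taken by gene name, so no measured value chose them, and all 8 were found in each of the 14 libraries. Their transcripts were followed by group, mouse and lineage, with stem cells set against lymphocytes.

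GIMAP proteins (GTPases of the immunity-associated protein family) are septin-like GTPases, most of which sit on intracellular membranes, and they are best known for keeping resting lymphocytes alive. Mice without Gimap5 lose peripheral T cells and have defective haematopoietic stem cells, and Gimap1 is needed for the survival of T and B cells. Gimap6 takes part in autophagy, Gimap4 has been linked to T cell death and cytokine secretion, and Gimap3 is a near-identical paralogue of Gimap5.

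Each library held sorted bone marrow cells of 1 mouse, whose transcripts were counted cell by cell in droplets from their 3′ ends. The sorted cells lacked lineage markers, carried Kit and were donor-derived (CD45.2+). There were 3 MxCre mice, 4 labelled Dnmt3a, 3 labelled Dnmt3a;Tnfr1KO and 4 labelled Dnmt3a;Tnfr2KO. In all 4 groups the mice were aged, lethally irradiated CD45.1+ secondary recipients harvested 20 weeks after transplant, and the primary recipients before them, also aged and irradiated, had been given poly(I:C) once. Mx1-Cre is an interferon-inducible recombinase, which poly(I:C) switches on in blood-forming cells as well as in other tissues, and the MxCre label names no other allele. The labels do not give the Dnmt3a allele, nor which primary recipient supplied which mouse, so replicates can have a common donor, and the SDs and p-values below may then be too small. Tnfr1 and Tnfr2 are the receptors for tumour necrosis factor, encoded by Tnfrsf1a and Tnfrsf1b.

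Of 86693 barcodes, 66895 cells were kept, between 1924 and 7265 per library, with 62416022 to 162869740 UMIs (unique molecular identifiers, 1 per captured transcript) in each library. Dnmt3a replicate 1 kept 26.5% of its barcodes and the other 13 libraries 63.2% to 91.6%. Libraries shared between 1 and 16 barcodes of kept cells per pair. Tnfrsf1b stood at 4.78 ± 0.687 CPM (a gene's UMIs over all UMIs, scaled to 1000000) in Dnmt3a;Tnfr2KO against 12.7 to 14.9 in the group means of the others, whereas Tnfrsf1a in the libraries labelled Dnmt3a;Tnfr1KO stood at 36.2 ± 2.50 against 42.8 to 51.4. Each of these 3 libraries (33.3 to 37.8 CPM) was below the lowest of the others (37.99), but the transcript was far from absent. Dnmt3a transcript averaged 33.4 CPM in the Dnmt3a group, 20.9 in Dnmt3a;Tnfr1KO and 22.3 in Dnmt3a;Tnfr2KO, against 25.3 in MxCre, so it was neither higher nor lower in all groups that carry this label. The labels do not say which part of a targeted gene is deleted, so a 3′ count outside it checks nothing.

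Lineages were defined per cell by UMIs of stated marker genes, never by a Gimap gene, and cells that met 2 or more definitions were set aside. The exception was cells that met only the pro-B and lymphoid-primed definitions, which were counted as pro-B. The stem gate required at least 2 UMIs of Hlf and a UMI of Mecom, Procr, Fgd5 or Hoxb5, and held 4416 cells, 104 to 751 in every mouse. The T/NK gate (3 of 13 T and NK cell genes) held 215 cells, the mature B gate (Cd79a with 2 of Ms4a1, Ighd, Fcmr, Fcer2a and Cd22) 539 and the pro-B gate (Cd79a and Ebf1 with an early B cell gene) 2226. Levels were computed on UMIs summed over the cells of a gate in mice with at least 10 of them, which gave 4, 8 and 6 mice for these 3 lymphocyte gates. The sort was meant to leave out T/NK and mature B cells, and Kit stood at 203.3 CPM in the stem gate and 7.02 in the mature B gate. In markers not used for gating, the stem gate had Esam at 19.6 CPM and no UMI of Pax5 (which allows up to 0.0363), the T/NK gate had Lck at 244.6 and Ms4a4b at 1487, and the mature B gate had Bank1 at 387.6.

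The family lies in 1 cluster on chromosome 6 (GRCm38, positions 48647186 to 48770851, 123.7 kb) in the order Gimap8, Gimap9, Gimap4, Gimap6, Gimap7, Gimap1, Gimap5 and Gimap3. Levels below are CPM of a sum. The chemistry counts transcript 3′ ends, so levels were not divided by transcript length, and a comparison between 2 genes also carries their difference in capture. Gimap3 and Gimap5 are so alike that reads could be assigned to the wrong one, Gimap9 overlaps the noncoding gene Gm46958, and Gimap1 has an antisense gene, Gimap1os.

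In the stem gate, Gimap1 carried 47.6% of the family's UMIs, Gimap6 24.2%, Gimap9 13.5% and Gimap5 10.54%, while Gimap4 carried 0.425% and Gimap3 0.137%. Gimap1 ranged from 62.7 to 185.8 CPM with a median of 116.0 (mean 114.5 ± 34.7, SD, n = 14). Gimap6 ranged from 28.2 to 98.4 with a median of 58.4 CPM, and Gimap9 from 24.1 to 41.2 with a median of 36.0. Gimap5, the member whose loss impairs stem cells, ranged from 9.90 to 51.2 with a median of 25.6 CPM. These 4 genes were found in the stem gate of every mouse. Gimap8, the largest family member, had a median of 4.20 (0 to 12.5) and Gimap7 a median of 3.18 (0.660 to 7.75) CPM. Gimap4 and Gimap3 had 90 and 29 UMIs in the stem gates of all 14 mice together, with medians of 0.603 and 0.164 CPM, and 2 and 5 mice had none.

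The T/NK gate expressed all 8 members. In the order MxCre 3, Dnmt3a 4, Dnmt3a;Tnfr1KO 2 and Dnmt3a;Tnfr1KO 3, Gimap3 stood at 551.4, 581.6, 329.1 and 295.8 CPM and Gimap4 at 618.2, 605.4, 597.2 and 314.7. For Gimap5 the same mice gave 217.2, 220.5, 254.5 and 151.1. Gimap3 and Gimap4 were thus at 295.8 or above in each of these mice, and no mouse's stem gate exceeded 3.82. Gimap1 was at 417.7, 333.0, 305.4 and 333.6 CPM, and Gimap6 at 501.2, 493.0, 505.5 and 371.3. Gimap7 lay between 223.9 and 253.0, Gimap8 between 54.3 and 149.2 and Gimap9 between 100.2 and 188.8. For every member the lowest T/NK value exceeded the highest stem value.

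**Figure D1:**
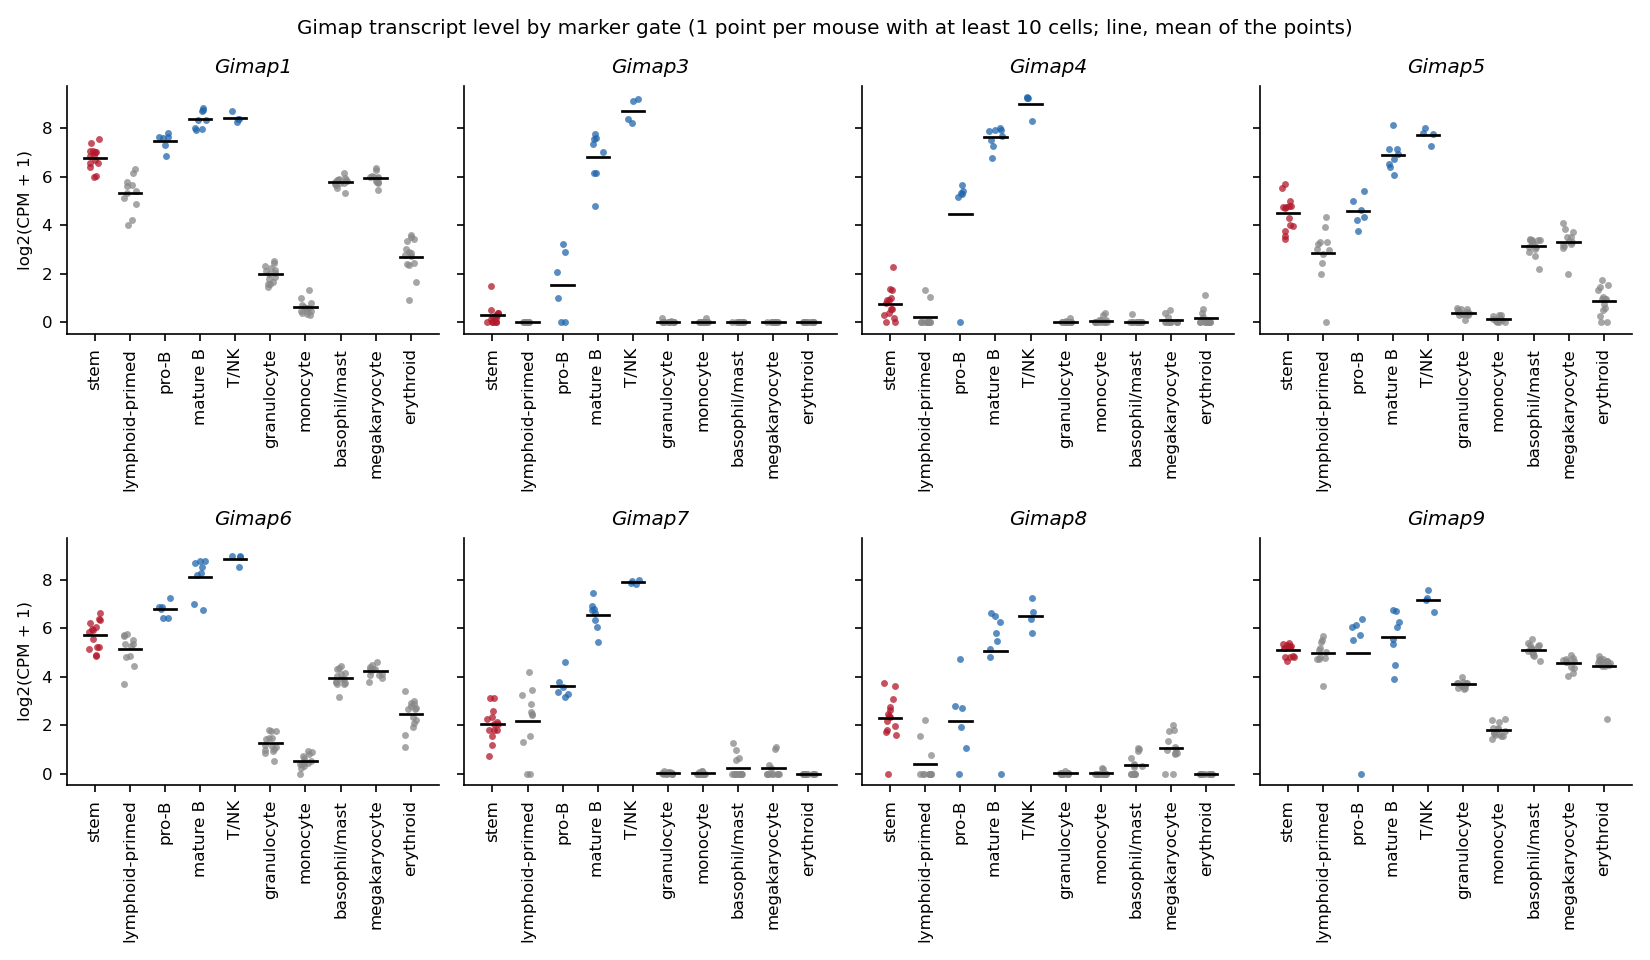
Level of each Gimap gene by marker gate, on a log2(CPM + 1) axis, with 1 point per mouse with at least 10 cells in the gate and a line at the mean of the points; the stem gate is red, the lymphocyte gates blue and other gates grey. Gimap3 and Gimap4 are near 0 in the stem gate and near 9 in the T/NK gate, whereas Gimap1 and Gimap9 lie within a few units of each other.

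Stem-gate sums were lower than T/NK sums for 8 of 8 members (edgeR's quasi-likelihood test over 111 sums of 10 gates with the mouse as a block, Benjamini-Hochberg adjusted p below 0.05), where 35.4% of 12652 genes were called and 15.4% were lower in the stem gate. The log2 difference was -9.59 (SE 0.469) for Gimap3 and -8.53 (SE 0.254) for Gimap4. Here and below, the SE of an edgeR difference is its absolute value over the square root of the test's F. For Gimap3 the difference ran from -10.35 to -8.13 under the alternatives and from -10.71 to -9.18 leaving out each mouse. Gimap7 differed by -6.21 (SE 0.299), Gimap8 by -3.97 (SE 0.357), Gimap5 by -3.28 (SE 0.228) and Gimap6 by -3.19 (SE 0.201). The gap was narrowest for Gimap9, at -2.33 (SE 0.210), and for Gimap1, at -1.63 (SE 0.195). The difference thus varied widely within the family, and was least for the member most abundant in stem cells. Gimap3 and Gimap4 were too low to be tested within the stem gate alone. They passed the filter of this fit through their lymphocyte levels, so a lower stem level was likely beforehand. The T/NK sums came from 14 to 95 cells a mouse with median depths of 3833 to 6193 UMIs, against 12289 to 29148 in the stem gate.

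In mature B cells all 8 members were again higher than in the stem gate (edgeR adjusted p from 5.13e-49 to 1.18e-09), where 51.0% of genes were called and 19.8% were lower in the stem gate. Gimap1 had a median of 321.9 CPM (241.9 to 457.3, n = 8) and Gimap6 of 339.6 (107.5 to 440.9). Gimap3 had a median of 144.5 (26.9 to 216.4) and Gimap4 of 220.5 (107.5 to 256.5). These ranges lay above all stem values for each of those 4 genes, whereas Gimap8 (0 to 98.8) and Gimap9 (14.1 to 106.0) overlapped the stem range. The stem-minus-B log2 difference was -8.45 for Gimap3, -7.41 for Gimap4, -5.13 for Gimap7 and -3.66 for Gimap8. It was -2.84 for Gimap6, -2.62 for Gimap5, -1.78 for Gimap1 and -1.42 for Gimap9. As against T/NK cells, Gimap3 and Gimap4 passed the filter through their lymphocyte levels, so their lower stem level was likely beforehand.

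The summed family in pro-B cells stood between the stem gate and mature lymphocytes. All 8 members were called lower in the stem gate than in the pro-B gate, where 56.7% of genes were called and 26.6% were lower in the stem gate. Again, Gimap3 and Gimap4 passed the filter of this fit through their lymphocyte levels. Gimap4 had the largest difference, a log2 value of -5.17 (SE 0.273), with a median of 38.4 CPM in the pro-B gate (0 to 49.2, n = 6). Gimap3 remained low in pro-B cells, with a median of 2.12 (0 to 8.31) against 144.5 in mature B cells, and differed from the stem gate by -2.14 (SE 0.764, edgeR adjusted p = 0.0153). Gimap7 differed by -1.44, Gimap9 by -1.10, Gimap6 by -1.01 and Gimap1 by -0.79. Gimap5 had the smallest fitted difference, -0.57, and Gimap8 stood at -0.86 (edgeR adjusted p = 0.0158 and 0.0325). For Gimap5 the levels themselves were alike, with a median of 21.7 CPM in pro-B cells against 25.6 in the stem gate and means of 24.6 and 24.2. DESeq2 called 6 members, without Gimap5 and Gimap8, and with a narrower stem gate edgeR called 3, Gimap1, Gimap4 and Gimap9.

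Dnmt3a replicate 4 supplied 1926 of the 2226 pro-B cells and had the highest pro-B values of Gimap5 (42.2 CPM) and Gimap8 (25.3). Without it the log2 difference of Gimap5 was -0.24 (edgeR adjusted p = 0.523) and that of Gimap8 turned to 0.48 (edgeR adjusted p = 0.512). Gimap3 lost its call without Dnmt3a replicate 1 (edgeR adjusted p = 0.266), Dnmt3a replicate 3 (0.0617) or Dnmt3a;Tnfr1KO replicate 2 (0.0716), and Gimap8 without Dnmt3a;Tnfr1KO replicate 2 (0.0515) or Dnmt3a;Tnfr1KO replicate 3 (0.0793).

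Among progenitors, cells with lymphoid priming (Flt3 and Dntt) that did not meet the pro-B gate had not taken on the lymphocyte pattern. In the 11 mice with enough of them, Gimap3 had no UMI (which over their sums allows up to 0.367 CPM) and Gimap4 a mean of 0.231 CPM. Gimap1, Gimap5 and Gimap8 were higher in the stem gate than in these cells, by 1.21, 1.33 and 1.78 on the log2 scale. Gimap7 was lower in the stem gate, by -0.95 (edgeR adjusted p = 0.0122), and Gimap3, Gimap4, Gimap6 and Gimap9 were not called. Of all genes, 24.6% were called in this comparison.

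Against granulocyte, monocyte, erythroid and megakaryocyte gates, all 8 members were called higher in the stem gate. In that order 77.7%, 75.8%, 79.2% and 48.8% of genes were called, and 41.3%, 40.8%, 40.5% and 25.8% were called higher. Gimap3 and Gimap4 passed the filter through their lymphocyte levels and rest on 29 and 90 stem-gate UMIs. Of the Gimap3 UMIs 19 came from MxCre replicate 3, and 5 mice had none. Monocytes had the lowest family sum, with Gimap1 at 0.569 and Gimap9 at 2.52 CPM and the other members at 0.462 or below. In granulocytes Gimap9 was at 11.9 and Gimap1 at 3.05, and in erythroid cells at 22.25 and 6.25. Gimap9 was thus the most abundant member in granulocytes and erythroid cells, in which the others were at 6.25 CPM or less. The basophil/mast gate differed from the stem gate in 7 of 8 members, with 45.1% of genes called and 23.3% called higher, and Gimap9 was not called (34.1 against 33.8 CPM, log2 difference -0.10, edgeR adjusted p = 0.431). Megakaryocytes, at 60.7 for Gimap1, and basophil/mast cells, at 54.2, had higher mean Gimap1 than the granulocyte, monocyte and erythroid gates.

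By mean level, T/NK, mature B, pro-B, stem was the order of the 4 highest gates for Gimap1, Gimap3, Gimap4, Gimap5, Gimap6 and Gimap8. For the summed family the means were 2481 ± 369, 1326 ± 397, 424 ± 72.4 and 238.4 ± 76.4 CPM. T/NK, mature B and pro-B ranges lay apart from each other, and the pro-B range overlapped that of the stem gate. For Gimap7 lymphoid-primed cells (5.36) stood above the stem gate (3.54), and for Gimap9 basophil/mast cells did, in both cases with overlapping ranges.

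A narrower stem gate (1161 cells) gave higher levels of Gimap1, Gimap5 and Gimap6 in 13 of 14 mice each. Gimap1 averaged 150.8, Gimap6 81.4 and Gimap5 36.6 CPM there. Gimap9 hardly differed, at 35.8 against 33.8. Gimap3 averaged 0.784 against 0.273 and Gimap4 1.72 against 0.862, higher in 6 and 9 of 14 mice.

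Cells with a UMI were also counted. After each cell was thinned to 5000 UMIs, Gimap1 was detected in 43.7% ± 9.56 of stem-gate cells (SD, n = 14), Gimap6 in 25.0% ± 8.03, Gimap9 in 16.0% ± 3.74 and Gimap5 in 12.5% ± 5.20. Unthinned, at median depths of 12289 to 29148 UMIs, these shares were 80.2%, 55.5%, 45.2% and 31.4%. Gimap4 and Gimap3 were detected in 0.430% and 0.241% of thinned stem-gate cells. In the T/NK gate of the 3 mice with enough deep cells, Gimap6 was detected in 89.6%, Gimap4 in 87.0% and Gimap3 in 72.7% of thinned cells, and unthinned in 82.5%, 84.2% and 86.0% over 4 mice. Shallower cells were left out, 37 in the stem gate and 76 in the T/NK gate of these mice.

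Several members were often found in 1 cell. At 5000 UMIs, 65.6% of stem-gate cells had a UMI of at least 1 member, 27.6% of at least 2 and 7.89% of at least 3, against 90.8% with at least 3 in the T/NK gate. The monocyte gate, the gate with the lowest summed family level, had a member UMI in 1.66% of cells at the same depth, with medians of 23236 to 55303 UMIs before thinning. Whether those are free RNA or expression was not tested, and Gimap9 was found in the monocyte gate of every mouse. In the erythroid gate 15.7% of cells had one, mostly of Gimap9 (9.31%). Gene by gene, monocytes had Gimap1 in 0.404%, Gimap6 in 0.282%, Gimap5 in 0.0444% and Gimap9 in 0.961% of cells, all far below the stem shares. Gimap4 was in 0.0458% of monocyte cells and Gimap3 in none, and their stem shares rest on few UMIs.

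The gates that held a member's UMIs differed by gene. The T/NK, mature B and pro-B gates, with 0.321%, 0.806% and 3.33% of all kept cells, together held 82.5% of Gimap4 and 80.4% of Gimap3 UMIs when all mice were pooled. The median mouse had 56.2% of its Gimap4 UMIs there (13.3% to 94.8%) and 74.0% of its Gimap3 UMIs (36.4% upward). Pooled, the gates held 42.4% of Gimap7, 39.5% of Gimap8, 17.3% of Gimap6, 16.3% of Gimap5, 11.98% of Gimap1 and 7.22% of Gimap9 UMIs. These pooled shares leaned on Dnmt3a replicate 4, where lymphocyte-gate cells were most frequent. Without it they were 69.4% for Gimap4, 74.0% for Gimap3, 29.4% for Gimap7 and 13.2% for Gimap8. For Gimap6 the share was then 6.83%, for Gimap5 6.30%, for Gimap1 3.43% and for Gimap9 1.75%. The stem gate, 6.60% of cells, held 28.3% of Gimap5, 26.99% of Gimap6, 26.7% of Gimap8 and 25.4% of Gimap1 UMIs but 2.68% of Gimap3. It held 10.996% of Gimap9 UMIs. Pooled over all mice, more Gimap1, Gimap5, Gimap6 and Gimap9 UMIs lay in the stem gate than in the lymphocyte gates. Cells that met no gate, 45.6% of all cells, held 43.8% of Gimap1 UMIs.

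**Figure D2:**
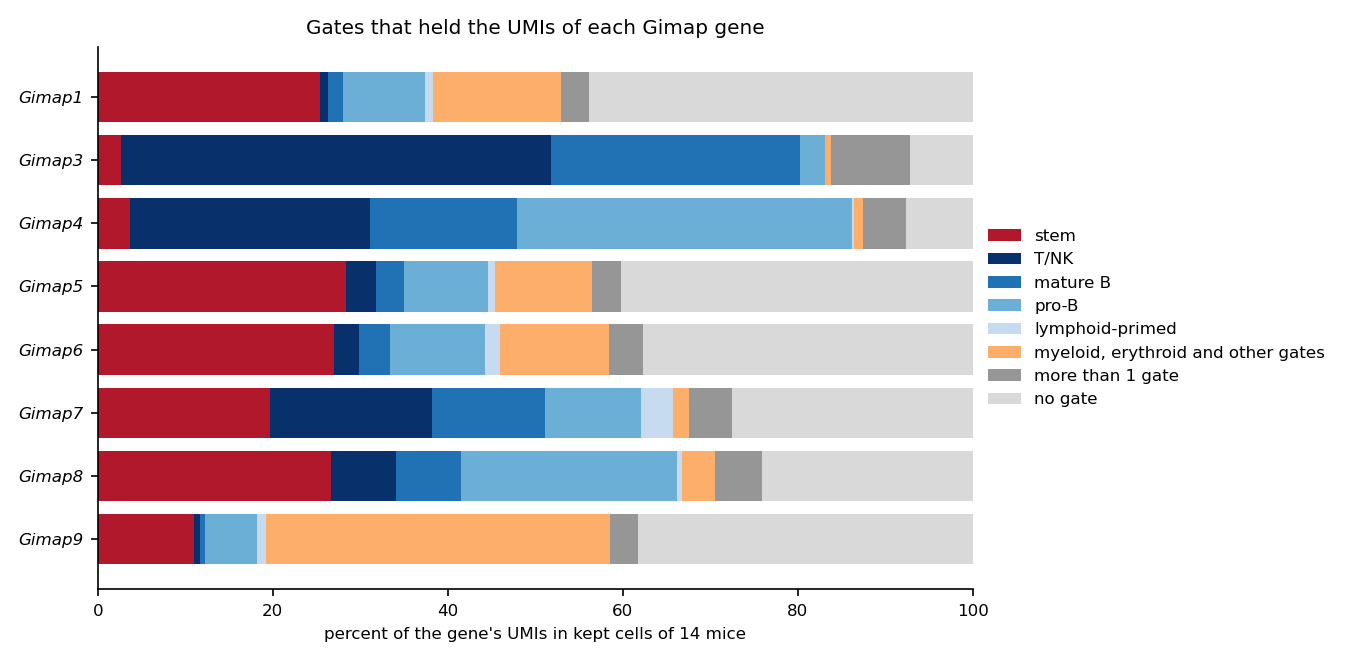
Percent of each Gimap gene's UMIs, over the kept cells of all 14 mice, that lay in each gate; each bar adds to 100 and blue shades are lymphocyte gates. The lymphocyte gates hold 80.4% of Gimap3 and 82.5% of Gimap4 UMIs and 7.22% of those of Gimap9, and without Dnmt3a replicate 4 they hold 74.0%, 69.4% and 1.75%.

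None of the 8 genes flanking the cluster was called lower in the stem gate than in T/NK cells. Tmem176b, the first gene after it, stood at 314.8 CPM in the stem gate and 69.8 in the T/NK gate, a log2 difference of 1.77 (SE 0.293), and Tmem176a was also higher in the stem gate (0.96, SE 0.285). On the other side Repin1 was higher in the stem gate, by 1.99 (edgeR adjusted p = 0.00230), and Gm5111 had no UMI in the T/NK gate (which allows up to 3.07 CPM) against 27.7 in the stem gate. Zfp775, AI854703, Malsu1 and Igf2bp3 were not called. The 8 flanking genes are the nearest on each side that passed the filter. Of them 4 were called against T/NK cells and all 4 were higher in the stem gate, opposite in direction to the 8 members. Of all genes, 35.4% were called in this comparison and 15.4% were lower in the stem gate.

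**Figure D3:**
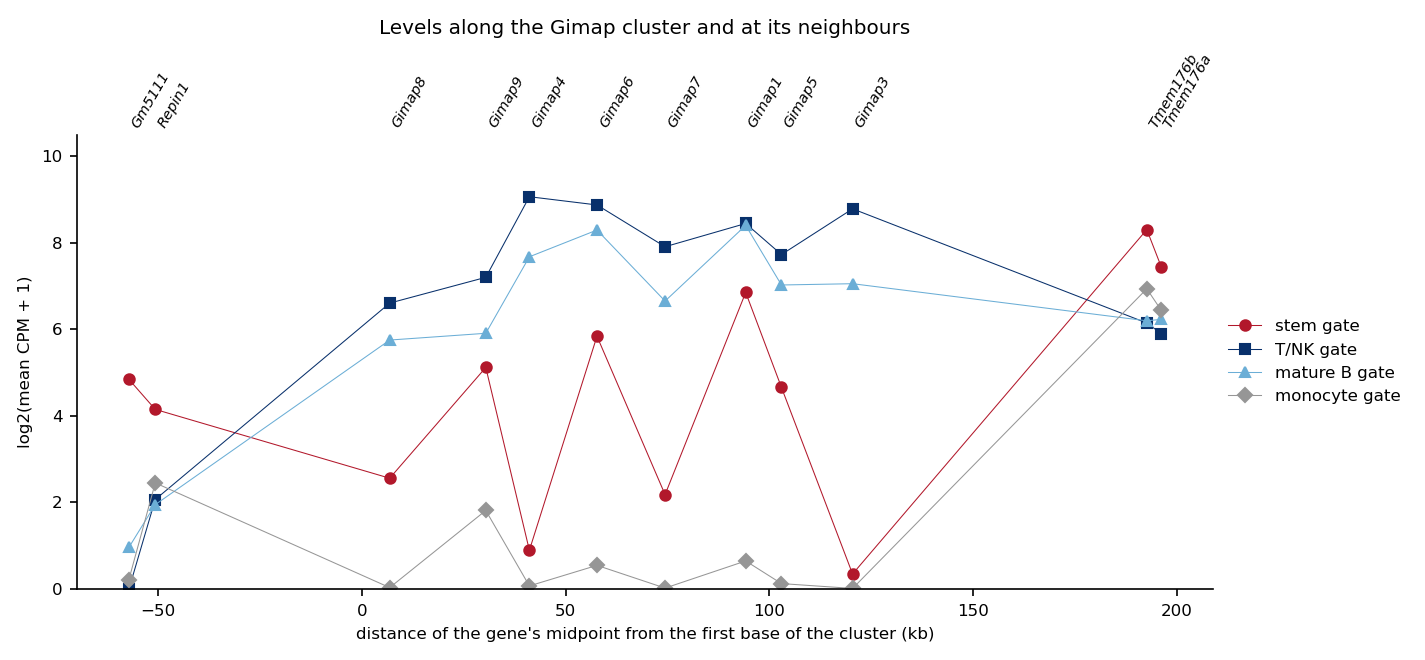
Mean level, as log2(mean CPM + 1), of the Gimap genes and their nearest expressed neighbours against distance in kb from the start of the cluster, in 4 gates. Within the cluster the T/NK and mature B lines lie at or above the stem line at every gene, and the stem line dips at Gimap4 and Gimap3; at Tmem176b the stem gate is highest.

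Across the 111 sums of mouse and gate, Gimap1, Gimap5 and Gimap6 followed each other closely (Pearson r of log2 levels 0.937 to 0.954), and so did Gimap3 and Gimap4 (r = 0.950). Gimap9 followed Gimap3 least, at r = 0.480. The sums of a mouse share a library, so these values describe the pattern and carry no test. Among 10044 other genes the 5 most like the summed family were Ptprcap (r = 0.913), Zbtb20 (0.905), Zfp36l1 (0.883), Prkd2 (0.880) and Rhoh (0.874). Rhoh, a haematopoietic GTPase, stood at 69.6 CPM in the stem gate, 199.1 in the T/NK gate and 26.4 in monocytes.

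Genes of lymphocyte quiescence, survival and trafficking were set beside the family. Of 24 such genes, 18 were lower in the stem gate than in T/NK cells and none was higher, where 15.4% of all genes tested were lower, with a median log2 difference of -2.84 against 0.20 over all genes tested and -3.63 over the 8 members. Il7r, the interleukin-7 receptor, differed by -12.50, and the T cell transcription factors Tcf7 and Lef1 by -9.40 and -8.88. Of 12 septins and small GTPases, 11 were lower in the stem gate, among them Arl4c (-3.81) and Rac2 (-1.63), with a list median of -0.89. Of 15 interferon-inducible GTPases, 10 were lower and none was higher, led by Gbp4 (-7.06), with a list median of -0.86. Both counts stand beside the same 15.4% of all genes.

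Within the stem gate, the family made up a lower share of UMIs in cycling cells. Cells with at least 3 UMIs of 8 mitotic genes, Mki67 and Top2a among them, were called cycling, and the other cells of the same mouse served as the comparison. All 5 members that passed the filter on low counts were lower in cycling cells (edgeR with the mouse as a block, adjusted p below 0.05), where 55.8% of 9497 genes were called, 30% lower. The log2 difference was -1.70 (SE 0.158) for Gimap8, -1.38 (SE 0.0813) for Gimap5, -1.12 (SE 0.0638) for Gimap6 and -0.80 (SE 0.0482) for Gimap1. Gimap9 differed least, by -0.36 (SE 0.0708). Gimap1, Gimap5 and Gimap6 were lower in cycling cells in 14 of 14 mice, and Gimap8 and Gimap9 in 13. Gimap3, Gimap4 and Gimap7 were too low to be tested. Gimap8 was near the filter and passed it in 4 of the 14 fits that left out 1 mouse, where it kept its call.

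In MxCre mice Gimap5 averaged 71.4 ± 19.6 CPM in non-cycling and 27.2 ± 1.20 in cycling stem-gate cells. In Dnmt3a mice the averages were 47.0 ± 10.57 and 16.99 ± 6.09. The 2 kinds of cell did not overlap in either group. Cycling cells were also deeper, with median depths of 14696 to 32721 UMIs against 6833 to 16357. CPM is a share of UMIs and not a count per cell. Pooled over mice, 2936 cycling cells held 6799 Gimap1 and 2139 Gimap9 UMIs, and 1480 other cells 3279 and 713. Per cell, Gimap1 and Gimap9 UMIs were thus no fewer in cycling cells, whereas those of Gimap5, Gimap6 and Gimap8 were fewer. When cells were split at 2 cycling UMIs per 10000 UMIs instead, a choice made after seeing the data, the same 5 members were lower. Gimap5 was then at -1.31 and Gimap1 at -0.69. The share of all genes lower is given for the first split alone. Of the quiescence genes tested, 10 of 17 were lower in cycling cells and 2 were higher, and of the interferon-inducible GTPases 8 of 10 were lower, beside the 30% of all genes called lower. The median log2 difference was -0.20 and -0.70 in these lists and -0.04 over all genes.

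**Figure D4:**
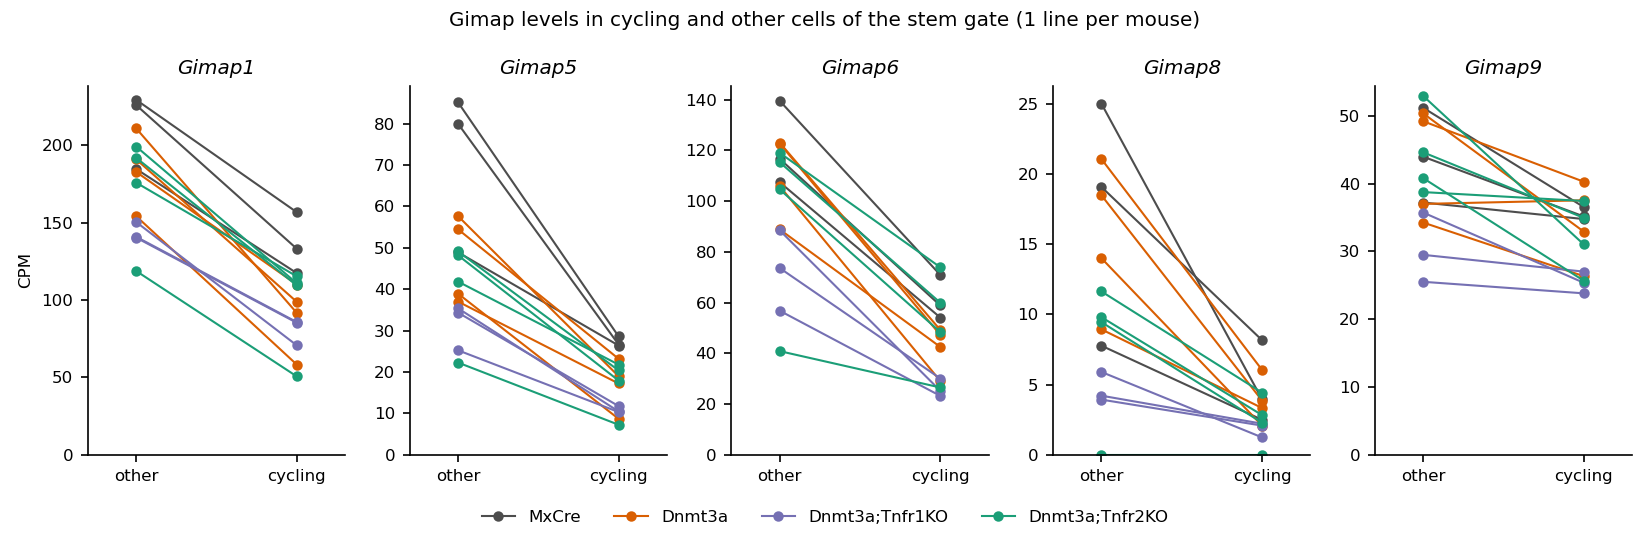
Level of the 5 tested Gimap genes in cycling and other cells of the stem gate, in CPM, with 1 line per mouse coloured by group. Lines fall from other to cycling cells for Gimap1, Gimap5 and Gimap6, and are flattest for Gimap9.

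The Dnmt3a group was compared with MxCre in the stem gate. Gimap5 stood at 31.0, 45.3 and 51.2 CPM in MxCre replicates 1 to 3 and at 10.9, 25.5, 26.4 and 18.9 in Dnmt3a replicates 1 to 4. Gimap1 stood at 131.2, 165.6 and 185.8 in MxCre and at 65.2, 114.4, 117.5 and 101.9 in Dnmt3a. For both genes every Dnmt3a mouse was below every MxCre mouse. Of the 6 members tested, 2 were called lower (edgeR, all 4 groups in 1 fit), where 9.27% of 11622 genes were called, 5.2% lower. Gimap5 fell by 1.12 on the log2 scale (SE 0.266, edgeR adjusted p = 0.0156) and Gimap1 by 0.75 (SE 0.216, adjusted p = 0.0368). DESeq2 called Gimap5 and not Gimap1 (adjusted p = 0.0614).

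Gimap6 pointed the same way without passing the threshold, at 65.0, 79.1 and 98.4 CPM in MxCre and 34.6, 60.04, 56.8 and 46.5 in Dnmt3a (log2 difference -0.77, SE 0.241, edgeR adjusted p = 0.0526). Its groups did not overlap either. Of the 6 members tested 3 had no overlap between the groups, as did 7.86% of all genes tested, in the same direction. Gimap8 gave -0.94 (edgeR adjusted p = 0.165), Gimap9 -0.18 (adjusted p = 0.487) and Gimap7 0.29 (adjusted p = 0.730). Gimap4 and Gimap3 were not tested. Gimap4 stood at 1.60, 1.496 and 3.82 CPM in MxCre and at 0.226, 0.138, 0.904 and 0.321 in Dnmt3a, with no overlap. The Dnmt3a values rest on 2, 1, 5 and 1 UMIs. The 7.86% is a share of tested genes and does not apply to Gimap4. Of T cell genes, Cd2 had 1 UMI over the stem gates of all 14 mice, in MxCre, and Lck averaged 3.79 CPM in MxCre and 3.08 in Dnmt3a.

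The share of cycling cells moved with this difference. It was 68.4%, 52.6% and 47.8% in MxCre and 85.7%, 73.6%, 80.1% and 83.7% in Dnmt3a, also without overlap. A fixed UMI count finds more cycling cells at greater depth. Dnmt3a stem gates were mostly deeper, with medians of 29148, 22227, 16578 and 28468 UMIs against 18180, 14199 and 12389. Split by rate, 349 of 531, 157 of 302 and 368 of 751 cells were cycling in MxCre. In Dnmt3a 227 of 286, 214 of 307, 244 of 307 and 81 of 104 were. The results below use the fixed count. Among non-cycling stem-gate cells alone Gimap5 differed by -0.66 (edgeR adjusted p = 0.0803) and Gimap1 by -0.35 (adjusted p = 0.257), and among cycling cells alone by -0.76 (adjusted p = 0.0965) and -0.65 (adjusted p = 0.0891), a split chosen after seeing the data. No member was called in either, where 3.61% and 4.57% of genes were called. Gimap1, Gimap5 and Gimap6 overlapped between the groups among non-cycling cells. Among cycling cells these genes did not, and the share of all genes separating there is not given. The call for Gimap5 was lost without MxCre replicate 2 or replicate 3 (edgeR adjusted p = 0.0648 and 0.107). That for Gimap1 was lost without MxCre 2 (0.115), MxCre 3 (0.177), Dnmt3a 1 (0.0791), Dnmt3a 4 (0.0696) or Dnmt3a;Tnfr1KO 2 (0.0506).

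Genes outside the family were counted in the same comparison, in which 9.27% of all genes were called and 5.2% were lower. Of 11 interferon-inducible GTPases tested, 6 were lower in Dnmt3a and none was higher, with Iigp1 at -1.68 and Tgtp1 at -1.38 on the log2 scale. Of 20 quiescence genes tested, 5 were lower, among them Slfn2 (-2.37) and Ltb (-1.57), and 2 were higher, 1 of them Bcl2 (0.81), named after its value was seen. None of the 12 septins and small GTPases was called. The median log2 difference was -0.60 over the interferon-inducible GTPases, -0.08 over the quiescence genes and 0.01 over the septins and small GTPases. It was -0.76 over the 6 members tested and 0.00 over all genes.

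**Figure D5:**
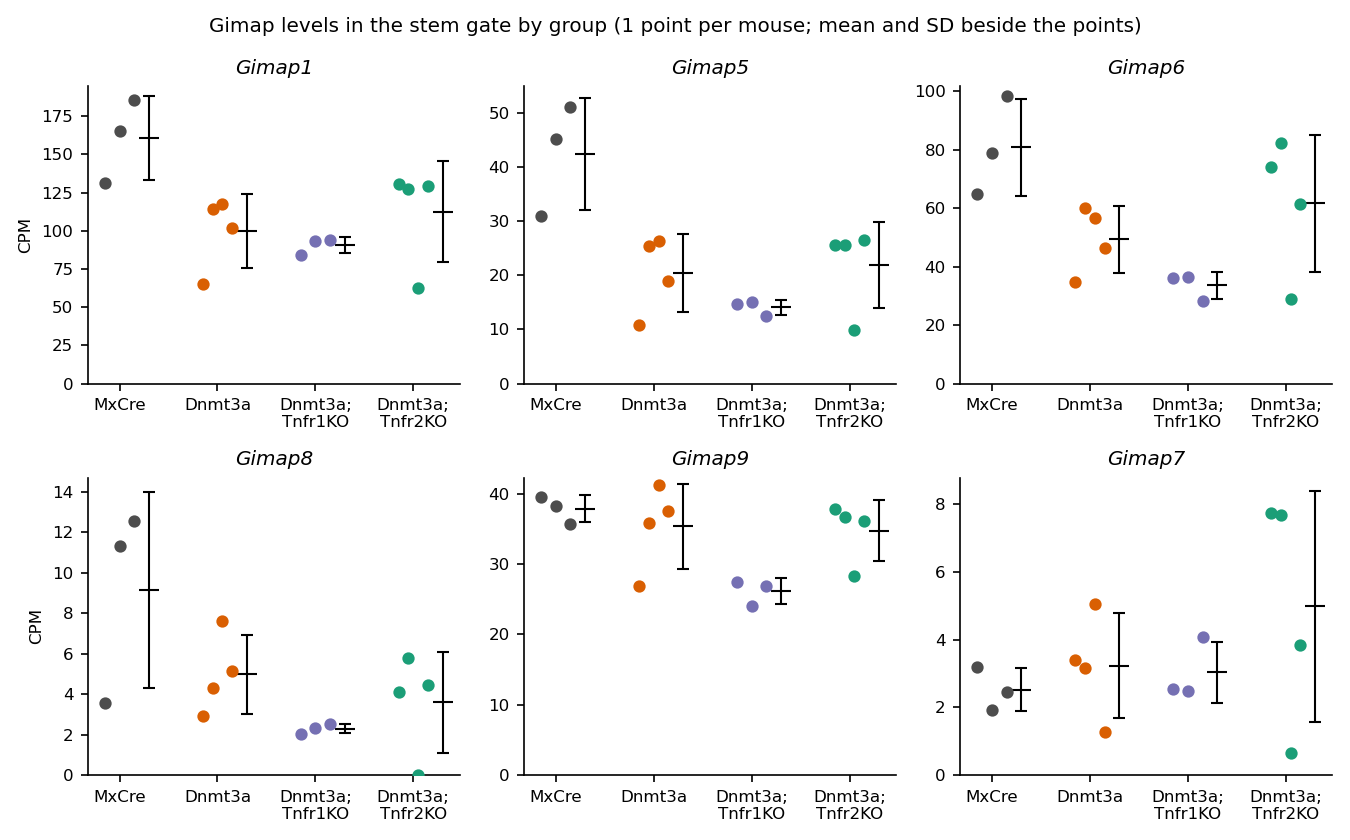
Level of each Gimap gene in the stem gate by group, in CPM, with 1 point per mouse and the mean and SD beside the points; each panel has its own axis from 0. The 3 MxCre mice lie above all 4 Dnmt3a mice for Gimap1, Gimap5 and Gimap6, of 6 members tested, as for 7.86% of genes tested. They also do for Gimap4, which was not tested and rests on 1 to 5 UMIs a mouse in Dnmt3a. Also, 1 Dnmt3a;Tnfr2KO mouse lies far below the other 3 for Gimap1 and Gimap5.

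The comparisons with the receptor knockouts share the Dnmt3a mice. In the libraries labelled Dnmt3a;Tnfr1KO, Gimap5 was at 14.7, 15.1 and 12.5 CPM and Gimap6 at 36.1, 36.5 and 28.2, all within the Dnmt3a range except the last Gimap6 value. Gimap8, at 2.03, 2.35 and 2.50, lay below all Dnmt3a mice (2.94 to 7.59), as did 13.3% of the genes tested. None of 6 members was called against Dnmt3a by edgeR or DESeq2, where edgeR called 0.835% of genes, and none had an unadjusted p below 0.05. Among non-cycling stem-gate cells alone, all 3 of these mice were below all 4 Dnmt3a mice for Gimap1 (means 143.9 and 184.7 CPM), Gimap5 (31.7 and 47.0), Gimap6 (73.0 and 110.1) and Gimap8 (4.68 and 15.6), as they were for 7.21% of the genes tested in the stem gate. The split was chosen after seeing the data, and Gimap8 rests on 2 to 12 UMIs a mouse. None was called there by edgeR (lowest adjusted p = 0.333, for Gimap8), where 0.563% of genes were called. Gimap6 and Gimap8 had an unadjusted edgeR p below 0.05, a cut whose share of all genes is not given.

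In Dnmt3a;Tnfr2KO replicates 1 to 4, Gimap6 was at 74.1, 82.3, 29.0 and 61.6 CPM and Gimap7 at 7.75, 7.69, 0.660 and 3.85. Replicate 3 was the lowest of the 4 mice for both genes, though for Gimap7 the other 3 mice also differed. Against Dnmt3a, 0 of 6 members were called by edgeR or DESeq2, where edgeR called 0.62% of genes. An unadjusted edgeR p below 0.05, a cut whose share of all genes is not given, was found for 2 members. These were Gimap6 (log2 difference 0.49) and Gimap7 (0.85), with edgeR adjusted p-values of 0.372 and 0.357.

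Between the receptor knockouts, Gimap9 was at 37.8, 36.8, 28.4 and 36.2 CPM in Dnmt3a;Tnfr2KO and 27.4, 24.1 and 26.9 in the libraries labelled Dnmt3a;Tnfr1KO, without overlap, as for 3.73% of the genes tested in that direction. By edgeR or DESeq2 0 of 6 members were called, where edgeR called 0.103% of genes. An unadjusted edgeR p below 0.05, a cut whose share of all genes is not given, was found for 3 members. These were Gimap6 (log2 difference 0.91), Gimap5 (0.70) and Gimap9 (0.43). The adjusted p-values of these 3 were 0.503, 1.00 and 0.964.

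Members were also summed over all kept cells, and in such sums fewer cells of a type and less RNA per cell cannot be told apart. Gimap4 stood at 0.906, 0.291, 0.644 and 12.1 CPM in Dnmt3a replicates 1 to 4, and at 0.165, 0.140, 0.137 and 0.199 in Dnmt3a;Tnfr2KO. The value of replicate 4 was apart from all others. Its lymphocyte gates made up 39.1% of kept cells, 35.5% being pro-B, and held 94.8% of its Gimap4 UMIs. In Dnmt3a;Tnfr2KO these gates made up 0.170% ± 0.0580 of cells. Without lymphocyte-gate cells the group means of Gimap4 were 0.546 in MxCre, 0.339 in Dnmt3a, 0.405 in Dnmt3a;Tnfr1KO and 0.103 in Dnmt3a;Tnfr2KO.

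None of the 8 members was called by edgeR over all cells in any of the 4 comparisons, where 2.35% of genes were called for Dnmt3a against MxCre, 0.441% for Dnmt3a;Tnfr1KO against Dnmt3a, 0.914% for Dnmt3a;Tnfr2KO against Dnmt3a and 0.198% between the knockouts. Members with an unadjusted edgeR p below 0.05 numbered 0, 0, 3 and 2 in that order, and the shares of all genes at that cut are not given. DESeq2 called 0, 0, 2 and 0, the 2 being Gimap3 and Gimap4 in Dnmt3a;Tnfr2KO against Dnmt3a. In edgeR these 2 differed by -3.56 and -4.19 (adjusted p = 0.115 and 0.0821). Leaving out each mouse, the difference ran from -3.95 to -1.20 for Gimap3 and from -4.57 to -1.71 for Gimap4.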

How the data were processed

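The deposited matrices hold raw UMI counts per gene and cell barcode, which the authors made with Cell Ranger 6.0.0 after bcl2fastq 2.20.0.422 on mm10 (GRCm38), per the submitters' processing notes and the file headers. The annotation release and the use of strand in counting are not given in the sources used here. Barcodes below 1000 UMIs or 500 genes, or with 10% or more mitochondrial UMIs, were left out, and doublets were called from simulated neighbours at 0.8% per 1000 cells. UMIs were summed per mouse and gate (11 gates, at least 10 cells) in Python 3.11.15 with scikit-learn 1.9.0. Sums were tested with edgeR 4.0.16 (quasi-likelihood, TMM scaling, filterByExpr, Benjamini-Hochberg adjustment, threshold 0.05) in R 4.3.3, with the mouse as a block between gates and between cycling and other cells. The fits were tested on simulated data, in which false calls made up a larger share of calls than the threshold for stem against T/NK cells and, by little, for Dnmt3a against MxCre in the stem gate, so calls near the threshold there are less sure than their adjusted p. Comparisons between groups used all 4 groups in 1 fit without a block. DESeq2 1.42.0, other filters, scalings and gates, and leaving out each mouse were alternatives. All 8 members were named in each comparison, with the 5 genes most like the summed family (Pearson r of log2(CPM + 1), among genes reaching a mean of 10 CPM in a gate), the 4 genes on either side of the cluster, and up to 4 called genes of largest change per list. Positions are from RefSeq for GRCm38.p6. The members and lists were chosen with earlier results of these data known, and the marker minimums of the gates were set on cell numbers and check markers, after seeing the data. Intervals and upper limits for counts of 0 (3 UMIs) cover counting error only. A few marker and list genes are not reported here by name.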

Additional observations from a re-analysis of the deposited data

Results flagged for a closer look

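In the stem gate, Dnmt3a;Tnfr2KO replicate 3 stood apart from the other 3 mice of its group in 3 members, by a gap above Dixon's critical value for 4 samples. Gimap1 was at 62.7 CPM there against 127.2 to 130.5, Gimap5 at 9.90 against 25.7 to 26.5, and Gimap9 at 28.4 against 36.2 to 37.8. Over all kept cells, Dnmt3a replicate 4 stood apart as the highest of its group in 4 members. Gimap3 was at 3.95 CPM against 0.146 to 0.293, Gimap4 at 12.1 against 0.291 to 0.906, Gimap7 at 3.36 against 0.702 to 1.15 and Gimap8 at 5.79 against 0.666 to 0.919. In that library 39.1% of kept cells lay in the lymphocyte gates, which held 88.5% of its Gimap7 UMIs. Of 24 sets of 4 mice checked, 7 had such a gap, all from these 2 libraries. Chance gives about 1 in 20 for independent sets, but members of a library vary together, so the 7 are no count of separate events.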

How the results depend on the processing

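The counts of 8 members lower in the stem gate than in T/NK and in mature B cells were the same under the 9 alternatives run and without each of the 14 mice. Of 977 single member values under alternatives, 935 kept their direction and side of the threshold, 26 lost the threshold, 13 gained it and 3 reversed. Against pro-B cells 8 members were called, but 3 with the narrower stem gate, 6 with DESeq2, 7 without the mouse block and 6 to 8 leaving out each mouse. With the narrower gate Gimap5 was at 0.17 and Gimap8 at 0.18 against pro-B cells, and 3 members were called between cycling and other cells, where testing without a filter on low counts gave 8. Leaving out each mouse, the log2 difference of Gimap8 from pro-B cells ran from -1.25 to 0.48. For Dnmt3a against MxCre in the stem gate (2 called), DESeq2 and the narrower gate each gave 1, no filter 6, only these 2 groups 4, and non-cycling or cycling cells alone 0. Leaving out each mouse gave 0 (without MxCre 3) to 4 (without MxCre 1). With the replicate number as a block it was 2. The deviations of same-numbered mice correlated at -0.22 to 0.24, and the labels do not say whether these mice share more than a number. Between the receptor knockouts in the stem gate, no filter gave 1. Over all cells, Dnmt3a;Tnfr2KO against Dnmt3a gave 2 with DESeq2, 1 without scaling beyond library totals, and 0 to 1 leaving out each mouse, and the receptor knockouts 0 to 2 (2 without Dnmt3a 4). The cause was not tested. Depth limits Gimap3 and Gimap4 in stem cells most, with 29 and 90 UMIs in all. The cycling splits and the scaling by library totals were chosen after seeing the data.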
